A study of Mus musculus with 24 samples.

Results

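All 24 RNA libraries of the study were split by their level of Chat RNA, the transcript of choline acetyltransferase. The members were chosen on measured Chat values: 6 libraries with under 1 CPM of Chat, called low, and 18 libraries with 1 CPM or more, called detected. CPM stands for counts per 1000000 counts, the gene's expected count divided by the column total of the deposited count table. Every library was made from neurons that had been captured because they stained for the choline acetyltransferase protein, so the split asks which other transcripts go along with an RNA that the capture would lead one to look for in each library.

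Choline acetyltransferase joins choline and acetyl-CoA into acetylcholine. The vesicular transporter Slc18a3 loads the transmitter into vesicles, acetylcholinesterase (Ache) breaks it down in the cleft, and the high-affinity transporter Slc5a7 brings choline back into the terminal. Cholinergic neurons of the medial septum and the vertical limb of the diagonal band project to the hippocampus, arise under the transcription factors Nkx2-1, Lhx8, Isl1 and Gbx1, and carry the neurotrophin receptor Ngfr.

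The mice were male, about 6 months old, and bred from Ts65Dn females whose mates were F1 males of C57Bl/6J Eicher × C3H/HeSnJ. Ts65Dn, a Down syndrome model with an extra copy of distal chromosome 16 and of a piece of chromosome 17, was compared with disomic littermates (2N). Their dams ate 1.1 g/kg (control) or 5.0 g/kg (supplemented) choline chloride from conception to weaning, after which all offspring ate the control diet. About 500 immunostained neurons per animal were cut by laser from 20 µm sections and gave 1 library each, of which the labels put 6 in control-diet 2N, 6 in control-diet Ts65Dn, 4 in supplemented 2N and 8 in supplemented Ts65Dn. Libraries are named here by group and by a number that follows the order of deposition.

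The cholinergic gene locus on chromosome 14 is shown because it holds both Chat and Slc18a3: Slc18a3 lies inside the first intron of Chat, on the same strand, with its RefSeq start 1059 bases after that of Chat. The start of Acly is shown because this gene had the highest rank correlation with Chat. Each sequence is 170 bases of RefSeq promoter from build GRCm38.p6, written 5′ to 3′ on the minus strand, outside every GENCODE M21 exon. Capitals mark matches on either strand to the E-box CACGTG and to the GC box GGGCGG, motifs that do not overlap here.
Chat, chr14:32465990-32466159: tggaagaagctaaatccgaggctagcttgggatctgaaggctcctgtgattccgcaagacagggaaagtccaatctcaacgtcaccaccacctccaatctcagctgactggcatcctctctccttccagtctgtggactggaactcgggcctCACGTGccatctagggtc
Slc18a3, chr14:32464872-32465041: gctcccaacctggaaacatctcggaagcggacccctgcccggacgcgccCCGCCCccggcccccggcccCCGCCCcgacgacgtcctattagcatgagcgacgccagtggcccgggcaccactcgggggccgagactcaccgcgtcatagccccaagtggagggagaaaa
Acly, chr11:100528081-100528250: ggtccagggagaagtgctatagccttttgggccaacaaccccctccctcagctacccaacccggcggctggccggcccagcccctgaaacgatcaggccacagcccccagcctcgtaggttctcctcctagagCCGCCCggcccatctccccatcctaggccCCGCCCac
The Chat window lies 81 to 250 bases before the RefSeq start, holds 1 E-box and no GC box, and is 54.7% G or C. The Slc18a3 window lies 22 to 191 bases before its start, holds 2 GC boxes and no E-box, and is 71.2% G or C. In the Acly window, 81 to 250 bases before the start, there were 2 GC boxes, no E-box and 67.6% G or C. The homeodomain motif TAATTA was in none of the 3 windows. Of 27025 mouse promoters in the RefSeq table, 3.39% held the E-box, 19.3% the GC box and 3.74% TAATTA in a window of the same length, at a median of 51.2% G or C. These matches describe letters, not binding. The antisense gene model Gm2990 overlaps the locus, and whether the authors' counting used strand is not given in the sources used here, so counts of the locus carry that uncertainty.

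Chat itself sets the split, so its values are a description and carry no test. In the low libraries Chat was 0 CPM in control-diet Ts65Dn 3, 0.392 CPM in supplemented Ts65Dn 7, 0.59 in supplemented 2N 3, 0.604 in control-diet Ts65Dn 6, 0.787 in control-diet 2N 5 and 0.86 in control-diet Ts65Dn 5. Behind these levels stand 0, 2, 6, 5, 6 and 10 counts. For the library with a count of 0, the floor of 3 counts was 0.64 CPM. The upper end of its 95% Poisson interval was 0.787 CPM. The detected libraries ran from 1.24 CPM in supplemented Ts65Dn 8 through a median of 16.8 to 63.2 in supplemented 2N 2. The library just inside the limit, control-diet Ts65Dn 5, had a 95% Poisson interval of 0.412 to 1.58 CPM, and the library just outside it, supplemented Ts65Dn 8 with 14 counts, one of 0.68 to 2.09. Their intervals overlapped, and supplemented Ts65Dn 8 was well below the next library, supplemented Ts65Dn 3 at 3.75 CPM. Reads carried no molecular identifiers, so these intervals cover counting error only.

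**Figure D1:**
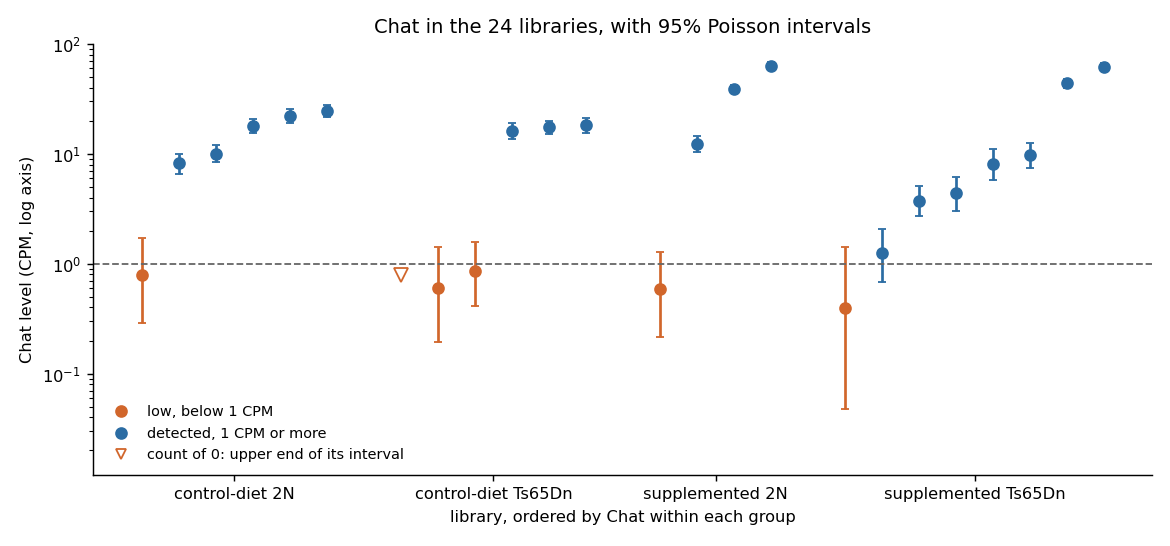
Chat level of each library in CPM on a log axis, ordered within the 4 groups, with 95% Poisson intervals of the count and a dashed line at 1 CPM. Low libraries (orange) occur in each group, 3 of them in control-diet Ts65Dn, and the open triangle is the upper end of the interval of a library with 0 counts.

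Each of the 4 groups held at least 1 low library: 1 of 6 in control-diet 2N, 3 of 6 in control-diet Ts65Dn, 1 of 4 in supplemented 2N and 1 of 8 in supplemented Ts65Dn. Within control-diet Ts65Dn the other 3 libraries held 16.2, 17.4 and 18.3 CPM, so this group had no library between 0.86 and 16.2 CPM. By the first part of the animal identifier, whose meaning is not stated, the low libraries were 2 of 6 with prefix 16 and 4 of 9 with prefix 17, against 0 of 2 with prefix 14 and 0 of 7 with prefix 15. Class and prefix are thus partly tied, and within-prefix values are given beside some of the results.

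Total counts ran from 4.69e+06 to 1.16e+07 in the low and from 5.05e+06 to 1.34e+07 in the detected libraries, and 13102 to 19149 against 13833 to 22593 genes had a count. Among 5 library measures compared by an exact permutation test within the groups (two-sided, 3840 assignments, adjusted over the 5), 2 passed 0.05. Mitochondrial ribosomal RNA took 16.8% to 43.3% of the counts of the low libraries (median 24.4%) and 13.5% to 34.6% of the detected ones (median 21.9%), a difference within groups of 5.84 percentage points (adjusted p = 0.0352 in the exact test). The share of the 100 most abundant genes differed by 5.15 points (adjusted p = 0.0352 in the exact test). Both ranges overlapped widely. Without the pair of low libraries that had fewest genes (control-diet Ts65Dn 3, with 13102, and supplemented Ts65Dn 7, with 13141), the differences were 2.55 and 2.52 points (adjusted exact p = 0.438 for both). Leaving out any 1 of 7 libraries also lost both calls: control-diet 2N 5, control-diet Ts65Dn 1, 3 or 4, supplemented 2N 3, or supplemented Ts65Dn 5 or 7 (adjusted exact p from 0.0551 to 0.2135, the latter without supplemented Ts65Dn 7, at 3.51 and 3.26 points). Total count, number of genes and the share of mitochondrially encoded mRNA did not pass (adjusted p = 0.101, 0.204 and 0.608 in the exact test). As a check of the genotype labels, the mean centred log2 CPM of 78 genes on distal chromosome 16 ran from -0.497 to 0.214 in 2N and from -0.551 to 0.557 in Ts65Dn libraries, with 7 of 14 Ts65Dn libraries above the highest 2N library. Control-diet Ts65Dn 3, labelled trisomic, had the lowest value of all 24, and supplemented Ts65Dn 7, at -0.39, was below the 2N median of -0.272. So was supplemented Ts65Dn 5, at -0.303, the detected library with fewest genes (13833). The part of the number of detected genes in this value was not tested.

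The low libraries did not lack the rest of the cholinergic machinery in a uniform way. Over 7 defining transcripts other than Chat (Slc18a3, Slc5a7, Ache, Ngfr, Lhx8, Isl1 and Gbx1), the summed level was 268 CPM in control-diet 2N 5 and 233 in supplemented 2N 3, inside the detected range of 137 to 495 CPM. The other 4 low libraries lay below every detected one, with 124 CPM in supplemented Ts65Dn 7 and with 102, 72 and 6.61 CPM in control-diet Ts65Dn 6, 5 and 3. With Chat counted, 6 of the 8 transcripts were at 0 in control-diet Ts65Dn 3 and 2 in number 5, none in the other 4 low libraries, and 0 to 3 in the detected ones. In bulk samples, fewer cells of a type and less RNA per cell cannot be told apart.

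Slc5a7, the choline transporter, shows the spread among the low libraries most plainly. It stood at 46.2 CPM in control-diet 2N 5 and 33.3 in supplemented 2N 3, at 7.36 in control-diet Ts65Dn 6 and 2.16 in supplemented Ts65Dn 7, at 0.086 in control-diet Ts65Dn 5 and at 0 in number 3. Detected libraries held 0 to 41.6 CPM, with a median of 22.6. The highest Slc5a7 value of all 24 libraries was therefore in a library with hardly any Chat, and control-diet Ts65Dn 2, with 17.4 CPM of Chat, had no Slc5a7 count. Slc18a3, whose gene sits within the Chat locus, was at 13.5 CPM in supplemented Ts65Dn 7, 5.9 in supplemented 2N 3, 2.29 and 1.31 in control-diet Ts65Dn 6 and control-diet 2N 5, and 0 in control-diet Ts65Dn 3 and 5. In the detected libraries it ran from 0 to 34.1 CPM (median 6.53). Supplemented Ts65Dn 7 was thus above the detected median, with only 3 detected libraries higher, while the other low libraries were below that median.

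**Figure D2:**
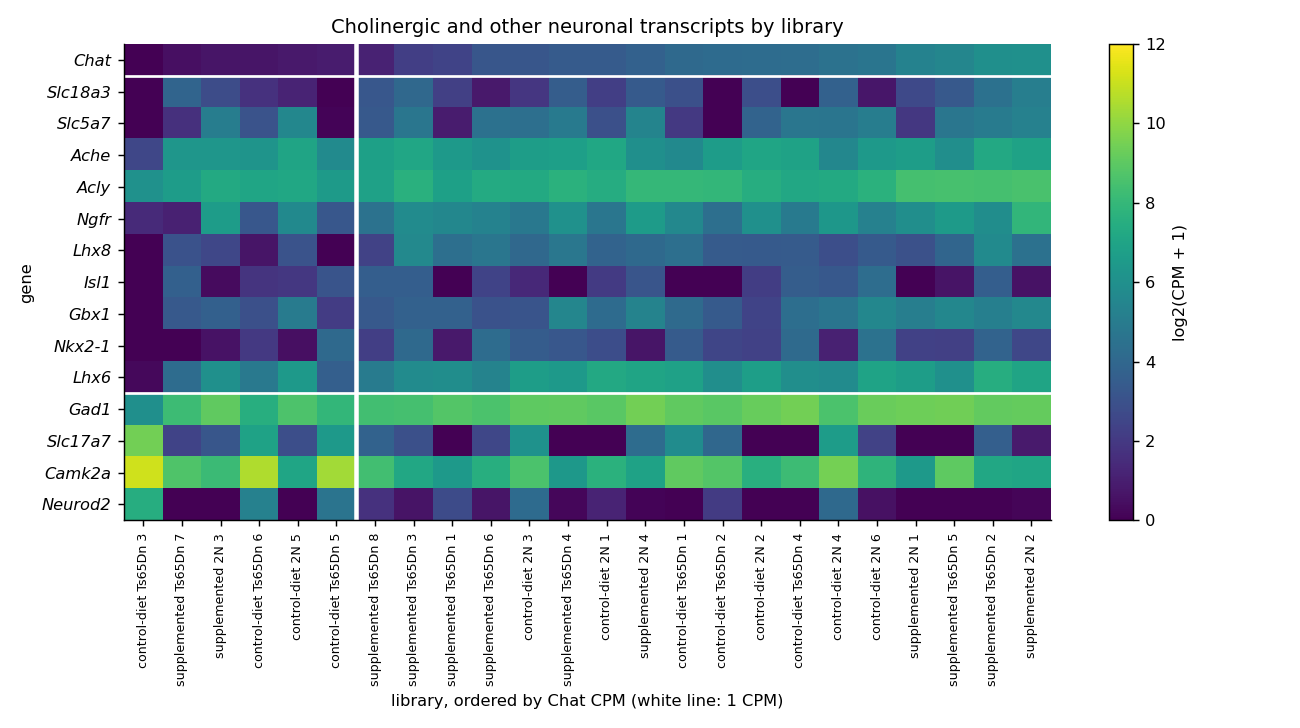
Levels as log2(CPM + 1) of Chat (top row), 10 transcripts linked to acetylcholine or the cholinergic lineage, and 4 markers of GABAergic (Gad1) or glutamatergic neurons (bottom rows). The 10 include Acly, which makes acetyl-CoA, and Lhx6, a factor of ventral forebrain neurons. Libraries are ordered by Chat from left to right, with a white line at 1 CPM. Control-diet Ts65Dn 3 is dark for most of these 10 transcripts, and control-diet Ts65Dn 3, 5 and 6 are bright for Camk2a. Control-diet 2N 5 and supplemented 2N 3 hold Slc5a7 and Ngfr at levels found in detected libraries.

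Across genes, low and detected libraries were compared with edgeR's quasi-likelihood test on 24 libraries, with the 4 groups as covariate and Chat left out. All differences below are log2, low minus detected, with standard errors (SE), and a gene was called at a Benjamini-Hochberg adjusted p under 0.05 over all genes tested. Of 19966 genes, 2 were called higher (0.01%) and 0 lower (0%) in the low libraries. At an unadjusted p under 0.05 there were 650 higher (3.26%) and 1141 lower (5.71%). The median difference over all genes was -0.12, with 55.5% of genes below 0. The p-values treat animals as independent, the litter is not given, and the classes are set by a measured value and are no groups of the study.

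Col9a3, a chain of the cartilage and matrix collagen IX, was the one named gene that rose. In the low libraries it stood at 167 CPM in supplemented Ts65Dn 7, at 158 in control-diet Ts65Dn 5, at 68.8 and 36.7 in control-diet Ts65Dn 6 and 3, 34.9 in supplemented 2N 3 and 32.8 in control-diet 2N 5. Detected libraries held 1.56 to 63 CPM (median 9.99), with control-diet Ts65Dn 1 highest. All 6 low libraries were above the detected median and 3 were above every detected library, a difference of 2.45 ± 0.43 (SE, edgeR adjusted p = 0.0232). The difference was 3.21 within prefix 17 (edgeR adjusted p = 0.0706) and 2.46 within prefixes 16 and 17 together (edgeR adjusted p = 0.000715), a subset chosen after the data were seen. With the prefix as a factor it was 2.51, with the number of detected genes as a covariate 2.34 and with the mitochondrial rRNA share 2.37, and none of these passed (edgeR adjusted p = 0.156, 0.180 and 0.414). Without control-diet Ts65Dn 3 and supplemented Ts65Dn 7 it was 2.19 (edgeR adjusted p = 0.765), without supplemented Ts65Dn 7 alone 2.01 (edgeR adjusted p = 0.564) and without control-diet Ts65Dn 5 it was 2.34 (edgeR adjusted p = 0.0893), so the call was lost each time. The second call, the antisense transcript 9030204H09Rik, falls outside the naming rule and is named after its values were seen: it was at 96.9 CPM in supplemented Ts65Dn 7, 18.5 in control-diet 2N 5 and 0.86 in control-diet Ts65Dn 5, at 0 in the other 3 low libraries, and at most 1.94 CPM in detected ones. Its difference of 9.31 ± 1.71 (SE, edgeR adjusted p = 0.0239) thus rests mainly on a pair of libraries.

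The genes with the next smallest p on the higher side did not pass. Icam5, an adhesion molecule of telencephalic dendrites, reached 264 CPM in control-diet Ts65Dn 3, with 93.1 and 74.2 in control-diet Ts65Dn 6 and 5, 91.6 in supplemented Ts65Dn 7, 24.9 in supplemented 2N 3 and 12.1 in control-diet 2N 5, against 0 to 45 in the detected libraries (median 11.2). The 3 control-diet Ts65Dn libraries and supplemented Ts65Dn 7 were above every detected one, and the difference was 2.88 ± 0.58 (SE, edgeR adjusted p = 0.0731). Cacna1e, a voltage-gated calcium channel, was at 284 to 1780 CPM against 177 to 809, a difference of 1.07 ± 0.23 (SE, edgeR adjusted p = 0.101). For Celf5, a neuronal RNA-binding protein, the levels were 75.6 to 283 against 12.2 to 111 CPM and the difference 1.31 ± 0.29 (SE, edgeR adjusted p = 0.101). Rprml, Adgrb2 and Slc8a2 had differences of 9.14, 0.92 and 1.37 (edgeR adjusted p from 0.101 to 0.155), and Rprml was at 0 in 2 low and 13 detected libraries. In Icam5, Cacna1e, Celf5, Slc8a2 and Adgrb2 control-diet Ts65Dn 3, 5 and 6 were among the 4 highest of the low libraries. Within prefix 17 the differences were smaller for Icam5 (0.996), Rprml (1.95), Slc8a2 (0.839) and Cacna1e (0.995). For Celf5 (1.57) and Adgrb2 (1.255) they were larger.

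No gene passed on the lower side. Lynx1, a membrane-anchored modulator of nicotinic acetylcholine receptors, had the smallest p. Its levels were 192 CPM in supplemented 2N 3, 177 in control-diet 2N 5, 94.2, 90.2 and 74.9 in control-diet Ts65Dn 5, 6 and 3, and lowest, at 39.2, in supplemented Ts65Dn 7. Detected libraries held 88.1 to 374 CPM (median 248), the lowest being supplemented Ts65Dn 8, the library just above the Chat limit. The difference was -1.11 ± 0.24 (SE, edgeR adjusted p = 0.101), with 6 of 6 low libraries below the detected median, and -1.04 within prefix 17. Pik3ca (a catalytic subunit of phosphoinositide 3-kinase), Fam13a, the acyl-CoA thioesterase Acot7 and mitochondrial superoxide dismutase Sod2 had differences of -1.19, -1.83, -1.15 and -1.13 (edgeR adjusted p from 0.175 to 0.176). Ola1 was at -2.76 and Hspa1a, an inducible heat shock protein with a near-identical copy (Hspa1b) that makes its counts uncertain, at -5.90 (edgeR adjusted p = 0.176 for both). Hspa1a was at 0 in 5 of 6 low and 4 of 18 detected libraries.

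**Figure D3:**
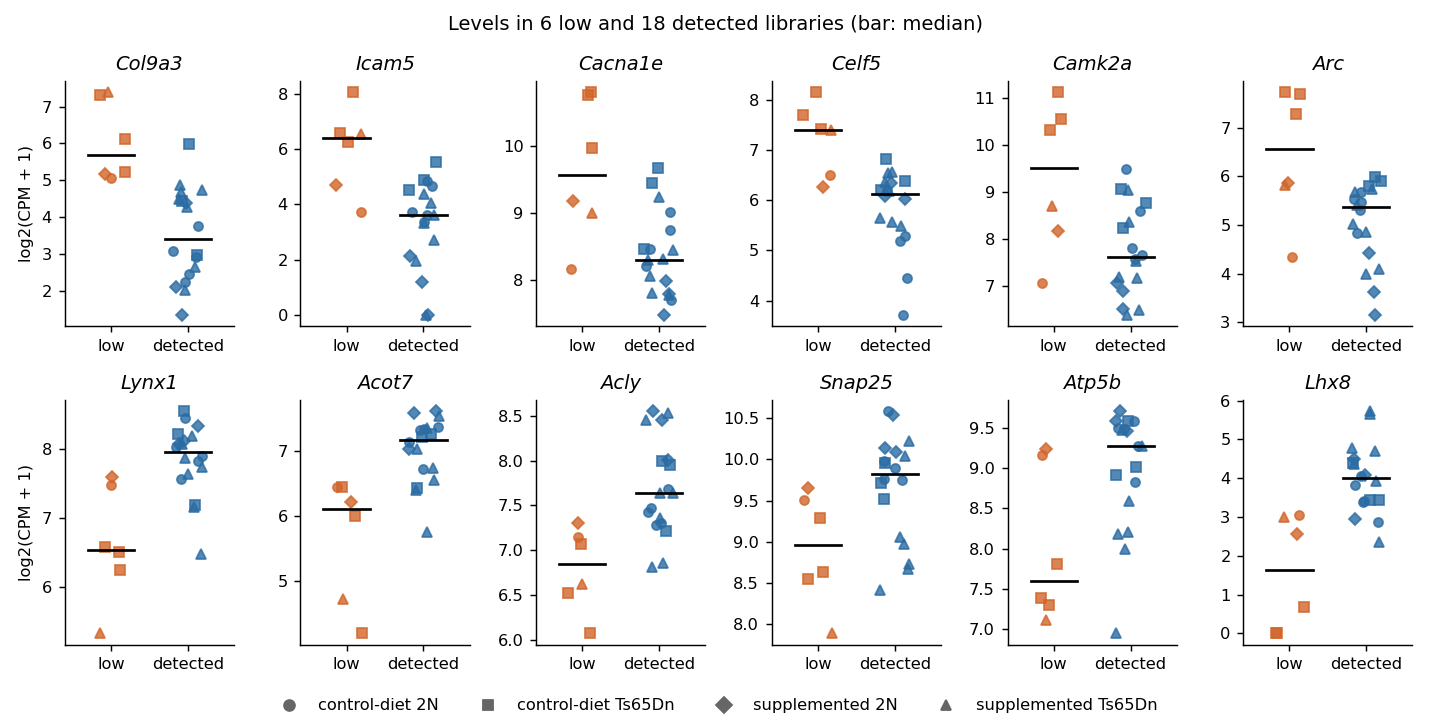
Levels as log2(CPM + 1) of 12 genes in the 6 low (orange) and 18 detected libraries (blue), with 1 symbol per group and a bar at the median, each panel with its own axis. For Col9a3 the low median is 52.7 CPM and the detected median 9.99, and for Camk2a, Arc and Cacna1e the highest points are control-diet Ts65Dn squares.

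Genes of acetylcholine handling were next compared as a list of 10. None was called, 7 of the 10 had differences below 0 and the median was -0.47, beside -0.12 over all genes. At an unadjusted p under 0.05 there were 2 lower (Acly and Colq) and 1 higher (Slc44a1). Slc18a3 was at -0.73 ± 1.09, Slc5a7 at -0.47 ± 0.83 and Ache at -0.28 ± 0.33 (SE, edgeR adjusted p = 0.928, 0.943 and 0.892). The sign of Slc18a3 turned in 2 and that of Slc5a7 in 5 of 40 alternatives. Colq and Prima1, which anchor acetylcholinesterase to the matrix and the membrane, were at -3.50 ± 1.72 and -3.74 ± 1.94 (SE, edgeR adjusted p = 0.546 and 0.576). Colq was at 0 in 3 of 6 low and 4 of 18 detected libraries, and Prima1 in 4 of 6 and 4 of 18. Slc44a1, a choline transporter of many cell types, was at 0.66 ± 0.31 (SE, edgeR adjusted p = 0.531).

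Acly, ATP-citrate lyase, makes the cytosolic acetyl-CoA that choline acetyltransferase uses, and it had the highest rank correlation with Chat. After subtraction of group means, Spearman's rho with Chat over the 24 libraries was 0.865, the highest of 14109 named genes, given as a description because each library's other counts share its depth. Low libraries had 157 CPM in supplemented 2N 3, 141 in control-diet 2N 5, 133, 90.8 and 66.1 in control-diet Ts65Dn 6, 5 and 3, and then 97.1 in supplemented Ts65Dn 7. Detected libraries ran from 111 in supplemented Ts65Dn 1 through a median of 198 to 376 in supplemented 2N 2, which also held most Chat. All 6 low libraries were below the detected median and 3 below every detected one. The class difference was -0.76 ± 0.22 (SE, edgeR adjusted p = 0.342) and the slope within the 18 detected libraries 0.20 ± 0.07 per log2 unit of Chat (SE, edgeR adjusted p = 0.414), so neither passed over all genes. With the amount of Chat over all 24 libraries in place of the class, Acly was called, at -0.22 per unit less of log2(Chat CPM + 1) (SE 0.05, edgeR adjusted p = 0.0218), although other genes, among them mt-Rnr2, Snap25 and Atp5b, had a smaller p in that fit. Within prefix 17 its class difference was -0.28 (edgeR adjusted p = 1).

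Next to Acly by the same measure came Ccnh (rho 0.86), a cyclin of the general transcription factor TFIIH, the respiratory chain subunit Ndufv2 (0.85), the cochaperone Cdc37l1 (0.839) and Cand1 (0.81), an assembly factor of ubiquitin ligases. Among the most opposite genes, named after their values were seen, were Trank1 (-0.831), Celf5 (-0.81), Mast3 (-0.807) and Nav2 (-0.801). Ccnh was at 0 to 2.62 CPM in the low libraries and at 2.01 to 33.5 in the detected ones (median 12.9), with 4 low libraries below every detected one and a difference of -3.38 (SE 1.002, edgeR adjusted p = 0.344). Ndufv2 was at 9.17 to 73.4 against 19.1 to 137 CPM, a difference of -1.06 ± 0.32 (SE, edgeR adjusted p = 0.356).

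Transcription factors of the lineage did not move as one. Lhx8, which specifies cholinergic neurons, was at 7.34, 7.06 and 4.92 CPM in control-diet 2N 5, supplemented Ts65Dn 7 and supplemented 2N 3, at 0.604 in control-diet Ts65Dn 6 and at 0 in control-diet Ts65Dn 3 and 5, against 4.09 to 52.5 in the detected libraries (median 15). All 6 were below the detected median, and the difference was -2.24 ± 0.80 (SE, edgeR adjusted p = 0.404). Lhx6, a factor of ventral forebrain neurons made under Nkx2-1, was at 0.213 to 86.4 against 31.1 to 178 CPM and had a difference of -1.38 ± 0.42 (SE, edgeR adjusted p = 0.344). Zic1, which marks septal progenitors and their offspring, was at 70.3 to 311 against 38.6 to 215 CPM and differed by 0.57 ± 0.27 (SE, edgeR adjusted p = 0.526), with the highest low values in control-diet Ts65Dn 6 and 5. Of the 8 tested factors 4 had differences above and 4 below 0, with a median of -0.45, and none was called.

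Among the 14 receptors for neurotrophins and other target-derived factors, 10 had differences below 0 (median -0.29), 3 of them at an unadjusted p under 0.05, and none was called. The low-affinity neurotrophin receptor Ngfr was at 99.4 CPM in supplemented 2N 3 and 50.3 in control-diet 2N 5, but at 8.69, 8.57 and 1.71 in control-diet Ts65Dn 5, 6 and 3 and only 1.18 in supplemented Ts65Dn 7. Detected libraries held 20 to 237 CPM (median 50.8), so 4 low libraries were below all of them, 1 was just under the median and 1 above it. The difference was -1.29 ± 0.46 (SE, edgeR adjusted p = 0.404), and -0.66 without control-diet Ts65Dn 3 and supplemented Ts65Dn 7. Lifr, a receptor subunit of the leukaemia inhibitory factor family, was at -1.08 ± 0.43 (SE, edgeR adjusted p = 0.412). Ntrk2 and Ntrk3, kinases that many neurons carry, were at -0.03 and 0.08 (edgeR adjusted p = 0.988 and 0.968).

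Lists of general neuronal function were also set beside all genes, and no member of any of them was called. Over all genes 55.5% of differences were below 0 and 5.71% were lower at an unadjusted p under 0.05, with a median of -0.12. Of 41 nuclear genes of the respiratory chain, 36 had differences below 0, 9 of them at an unadjusted p under 0.05, with a median of -0.72. Their summed level was 1042 to 2982 CPM in the low libraries, with control-diet 2N 5 and supplemented 2N 3 highest, and 1158 to 3921 in the detected ones. Cox7b was at -2.46 ± 0.62 and the ATP synthase beta subunit Atp5b at -0.85 ± 0.23 (SE, edgeR adjusted p = 0.189 and 0.253). Atp5b stood at 604 and 572 CPM in supplemented 2N 3 and control-diet 2N 5 and at 137 to 224 in the other 4 low libraries, against a detected median of 619 and a lowest detected value of 122 in supplemented Ts65Dn 8.

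Neurofilaments and the axonal cytoskeleton had 14 of 15 genes below 0, 8 at an unadjusted p under 0.05 and a median of -0.50. The neurofilament subunit Nefm was at 1576 and 1144 CPM in control-diet 2N 5 and supplemented 2N 3 and at 130 to 544 in the other 4, against 535 to 2046 in the detected libraries, a difference of -0.81 ± 0.23 (SE, edgeR adjusted p = 0.311). Chaperones and ubiquitin genes had 17 of 18 below 0 (5 at an unadjusted p under 0.05, median -0.35). Without control-diet Ts65Dn 3 and supplemented Ts65Dn 7, the genes at an unadjusted p under 0.05 numbered 4 for the cytoskeleton, 1 for the chaperones and 6 for the respiratory chain, with medians of -0.48, -0.35 and -0.55. Synaptic vesicle genes had 16 of 22 below 0 (median -0.19), led by Cplx1 at -0.81 ± 0.21 and Snap25 at -0.68 ± 0.18 (SE, edgeR adjusted p = 0.199 and 0.271). Sv2b and Stx1a of the same list, named after their values were seen, were at 1.57 and 1.39 (edgeR adjusted p = 0.49 for both). Ribosomal protein genes had 28 of 42 below 0 (median -0.27), kinesin and dynein motors 11 of 17 (median -0.15), sodium and HCN channels 9 of 14 (median -0.16), and peptides and receptors of septal cholinergic neurons 8 of 15 (median -0.12). The last of these medians was that of all genes (-0.12), of which 55.5% were below 0.

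**Figure D4:**
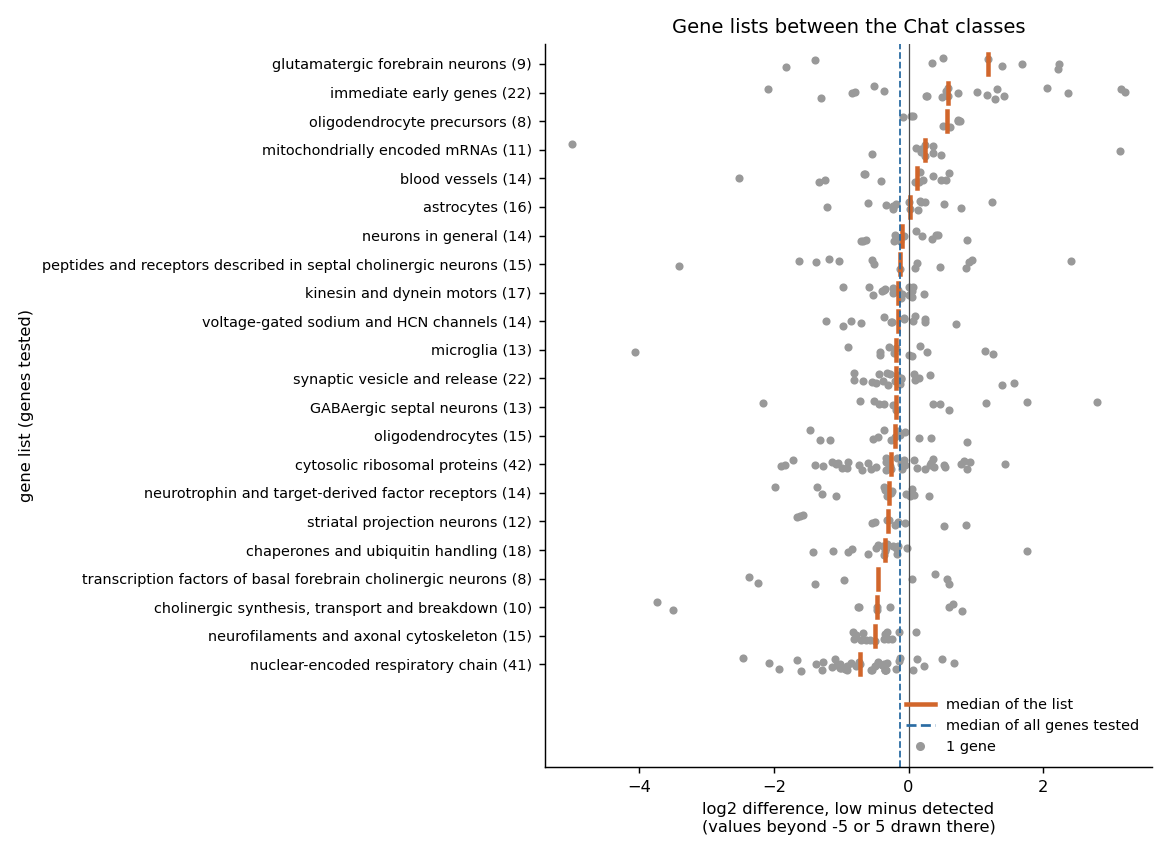
Each grey point is the log2 difference (low minus detected) of 1 gene, by gene list, with the list median in orange and the median of all genes as a blue dashed line at -0.12. The medians drawn run from -0.72 for the nuclear respiratory chain to 1.18 for glutamatergic forebrain markers, and only lists with at least 8 tested genes are drawn. A list of defining cholinergic markers without Chat, which overlaps other lists, is not drawn. Its median was lower, at -0.84, with 7 of 8 tested genes below 0, 3 at an unadjusted p under 0.05 and 0 called.

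Markers of glutamatergic forebrain neurons lay on the other side, with 7 of 9 above 0 and a median of 1.18, none called. Camk2a, a kinase abundant in pyramidal neurons, was at 2247, 1515 and 1279 CPM in control-diet Ts65Dn 3, 6 and 5, at 417 in supplemented Ts65Dn 7, 287 in supplemented 2N 3 and 133 in control-diet 2N 5, against 82.5 to 720 in the detected libraries (median 196). The 3 control-diet Ts65Dn libraries were above every detected one, and the difference was 1.39 ± 0.34 (SE, edgeR adjusted p = 0.176). Within control-diet Ts65Dn alone, 3 low against 3 detected libraries, it was 2.17 ± 0.35 and was called (SE, edgeR adjusted p = 0.00726), whereas within prefix 17 it was 0.56 (edgeR adjusted p = 1). Of markers named after their values were seen, the vesicular glutamate transporter Slc17a7 stood at 705, 119 and 85.9 CPM in control-diet Ts65Dn 3, 6 and 5 and at 4.32 to 8.27 in the other 3 low libraries, against 0 to 97.8 in the detected ones. Neurod2, a factor of cortical excitatory neurons, was at 177, 37.5 and 23.6 CPM in control-diet Ts65Dn 3, 6 and 5 and at 0 in the other 3, against at most 17.1 in any detected library. Slc17a6, a vesicular glutamate transporter of subcortical neurons, lay on the other side: it was at 1.49, 2.29 and 0.086 CPM in control-diet Ts65Dn 3, 6 and 5 and at 3.54 to 16.4 in the other 3 low libraries, against 0 to 57.6 in the detected ones (median 17.5), a difference of -1.82 ± 0.81 (SE, edgeR adjusted p = 0.483). Summed over the list of 10, the markers reached 3448, 1772 and 1426 CPM in control-diet Ts65Dn 3, 6 and 5, above the detected range of 122 to 968, while the other 3 low libraries had 201 to 438. The part of glutamatergic RNA in the class differences was not tested.

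Immediate early genes, which neurons switch on with activity, had 16 of 22 above 0 and a median of 0.59, 3 of them at an unadjusted p under 0.05 and none called. Arc was at 212, 205 and 154 CPM in control-diet Ts65Dn 6, 3 and 5, at 57.3 in supplemented 2N 3, 55.9 in supplemented Ts65Dn 7 and 19.4 in control-diet 2N 5, against 7.88 to 62.1 in the detected libraries. It differed by 1.42 ± 0.35 (SE, edgeR adjusted p = 0.176). Egr1 was at 1.16 ± 0.43 (SE, edgeR adjusted p = 0.404). Within prefix 17 the differences were 0.40 for Arc and 0.64 for Egr1. The summed level of the list was 648 to 1329 CPM in the 3 low control-diet Ts65Dn libraries and 197 to 312 in the other 3, against 141 to 634 in the detected ones, so the same 3 libraries that held most glutamatergic RNA stood above the detected range.

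The summed markers of other cell types overlapped between the classes. Beside the counts that follow, 44.5% of all genes had differences above 0 and 55.5% below. GABAergic septal markers had 7 of 13 below 0 (median -0.19) and summed to 536 to 1494 CPM in the low and 1038 to 2137 in the detected libraries. Gad1, which makes GABA, was at -0.72 ± 0.21 (SE, edgeR adjusted p = 0.344), with 4 low libraries below every detected one. Astrocyte markers were even (9 of 16 above 0, median 0.02, summed 3362 to 5238 against 3074 to 5851 CPM), and oligodendrocyte markers were below 0 in 12 of 15 (median -0.20, summed 699 to 3781 against 2580.1 to 4418 CPM), lowest in control-diet Ts65Dn 3. Oligodendrocyte precursor markers were above 0 in 7 of 8 (median 0.56), microglial ones in 6 of 13 (median -0.18), vessel ones in 8 of 14 (median 0.13) and striatal ones in 2 of 12 (median -0.31). Without control-diet Ts65Dn 3 and supplemented Ts65Dn 7 the vessel markers were above 0 in 5 of 14 (median -0.18), the precursor markers in 5 of 8 (median 0.20), the microglial markers in 5 of 13 (median -0.42) and the astrocyte markers in 7 of 16 (median -0.09). Blood cell markers had 3 tested genes (2 below 0) and choroid plexus and ependyma 5 (4 below 0, or 2 without those libraries), and neurons in general had 8 of 14 below 0 (median -0.10). With a glial marker score as covariate the same pair of genes was called, and Col9a3 differed by 2.47 (edgeR adjusted p = 0.0137).

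Mitochondrially encoded mRNAs ran opposite to the nuclear respiratory genes: 9 of 11 were above 0, with a median of 0.24, and none was called. mt-Nd6 was at 0.48 ± 0.19 (SE, edgeR adjusted p = 0.412). mt-Nd3 was listed at 0 in all 6 low and in 9 of 18 detected libraries, although other mitochondrial mRNAs were abundant in the same libraries, so its fitted difference is not given.

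The amount of Chat was then used among the 18 detected libraries, as a slope per unit of log2 Chat CPM with the groups as covariate. This fit shares its 18 libraries with the class comparison and is given beside it, not as support for it. Of 20641 genes, 5 were called higher with more Chat (0.0242%) and 2 lower (0.00969%), and at an unadjusted p under 0.05 there were 605 higher (2.93%) and 921 lower (4.46%). Over all genes 43.2% of the slopes were above 0 and 56.8% below. The calls with a name were the ribosomal protein genes Rps3 and Rpl5 and the nuclease gene Tatdn1 on the higher side and the large mitochondrial ribosomal RNA mt-Rnr2 on the lower side. The lincRNA AC121802.1, the gene model Gm37376 and 1 identifier with no symbol made up the rest, named here after their values were seen.

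Rps3 rose by 0.86 ± 0.11 and Rpl5 by 0.88 ± 0.12 per log2 unit of Chat (SE, edgeR adjusted p = 3.92e-05 for both). Rps3 ran from 28.7 CPM in supplemented Ts65Dn 4 to 2000.0 in supplemented Ts65Dn 5 (median 440.1), and Rpl5 from 3.91 in supplemented Ts65Dn 8 to 296 in control-diet Ts65Dn 4 (median 83.6). Among the detected libraries, supplemented Ts65Dn 1, 3, 4, 6 and 8 were lowest for both, with Rps3 at 28.7 to 51.9 and Rpl5 at 3.91 to 16.2 CPM. Every other detected library had Rps3 at 125 CPM or more and Rpl5 at 21.7 or more. The part of this split in the slopes was not tested. The low libraries did not lie on these lines: Rps3 was at 2259, 1004, 862 and 451 CPM in control-diet Ts65Dn 6, control-diet Ts65Dn 5, control-diet 2N 5 and supplemented 2N 3, and at 42 and 11.7 in supplemented Ts65Dn 7 and control-diet Ts65Dn 3. Rpl5 was likewise at 72.4 to 679 CPM in the former 4 libraries and at 12.6 and 2.77 in the latter pair, which are the ones with fewest genes. With the prefix as a factor the slopes were 0.99 and 0.95, and within prefix 15, over 7 libraries, 1.37 and 0.89, both settings added after the data were seen. Both genes have many processed copies in the genome, so their counts depend on how the authors' counting shared reads. Over all 42 tested ribosomal protein genes, these 2 included, 33 slopes were above 0, beside 43.2% of all genes, and the median was 0.17. With limma-voom the slope of Rps3 was 0.79 and passed (adjusted p = 0.00864 in limma), while that of Rpl5 was 0.75 and did not (adjusted p = 0.207 in limma).

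Mitochondrial ribosomal RNA went the other way. mt-Rnr2 fell by 0.27 ± 0.05 per log2 unit of Chat (SE, edgeR adjusted p = 0.00277), from 288000 CPM in supplemented Ts65Dn 3, with 3.75 CPM of Chat, to 101700 in control-diet Ts65Dn 4, with 18.3. Supplemented Ts65Dn 1, 3, 4, 6 and 8 held 236300 to 288000 CPM, against at most 172200 in the other detected libraries. Low libraries held 373500 CPM in supplemented Ts65Dn 7, then 273000 in control-diet Ts65Dn 3, and 138400 to 189500 in the other 4, around the detected median of 158590. Without supplemented Ts65Dn 2 the slope was -0.18 and without supplemented Ts65Dn 5 it was -0.25, and neither passed (edgeR adjusted p = 0.326 and 0.1035). With limma-voom it was -0.24 and did not pass (adjusted p = 0.237 in limma). All 11 tested mitochondrial mRNAs had slopes below 0 (median -0.22), and 36 of 41 nuclear respiratory genes had slopes above 0 (median 0.13), none of them called. Tatdn1 ran from 2.57 to 17990 CPM in the detected libraries, and its slope of 1.01 ± 0.16 (SE, edgeR adjusted p = 0.00115) turned to -0.80 with limma-voom. It was at most 166 CPM in supplemented Ts65Dn 1, 3, 4, 6 and 8 and at least 2520 in the other detected libraries.

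**Figure D5:**
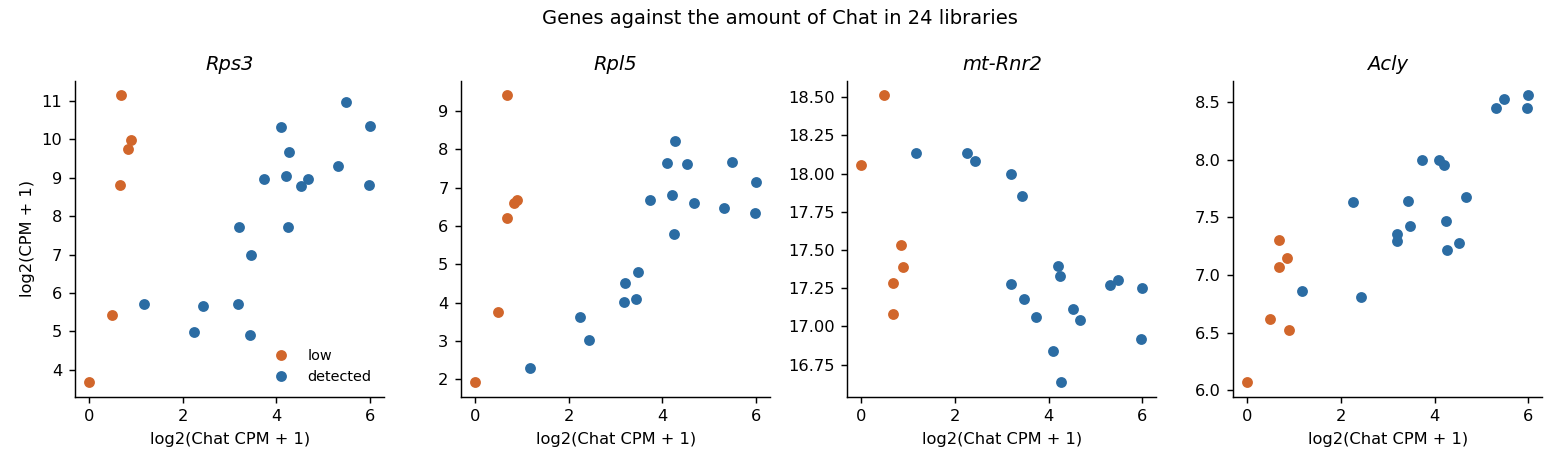
Levels as log2(CPM + 1) of Rps3, Rpl5, mt-Rnr2 and Acly against log2(Chat CPM + 1) in the 18 detected (blue) and 6 low libraries (orange). Rps3 and Rpl5 climb with Chat among the detected libraries while 4 low libraries lie far above that trend, and Acly climbs over all 24 libraries.

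The next genes by slope did not pass. Hspa8, the constitutive heat shock cognate, had 0.34 ± 0.07, and the apolipoprotein Apoe 0.23 ± 0.05 (SE, edgeR adjusted p = 0.0678 and 0.0772). Pls3, Eif4a1 and Sacm1l were at 0.42, 0.47 and 0.46, and on the lower side Lmtk3, Akap8l, Rai1, Rreb1, Plec and Col4a1 were at -0.27, -0.25, -0.33, -0.42, -0.23 and -0.36 (edgeR adjusted p from 0.0772 to 0.171). No cholinergic gene had a slope that passed within the detected libraries. The slopes were 0.14 ± 0.34 for Slc18a3, 0.16 ± 0.26 for Slc5a7, -0.08 ± 0.10 for Ache, 0.03 ± 0.21 for Lhx8 and 0.23 ± 0.12 for Ngfr (SE, edgeR adjusted p from 0.707 to 0.996). Over the list of 10, 6 slopes were above and 4 below 0, with a median of 0.07 beside -0.05 over all genes.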

How the data were processed

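RNA of laser-captured neurons was measured in 24 libraries, 1 per animal, made with the SMARTer Stranded Total RNA-Seq Pico kit and read with 50 cycles, per the labels' protocols. Reads were trimmed with Trimmomatic 0.39, aligned with STAR and quantified with RSEM, per the submitters' processing notes, which name builds GRCm39 and mm10 without a role. No version of the aligner or of RSEM stands in the sources used here. The deposited expected counts per gene are RSEM estimates by the authors, of which 6.53% were not whole, and they were rounded here. The deposited TPM (scaled by effective length and library) were made by the authors with RSEM and served here only as a check of Chat. The 55414 identifiers were matched to GENCODE M21 symbols (52081 matched). Column totals were 4688258 to 13443438 (median 10010353).

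Groups came from the titles. The classes, the members and all gene lists were chosen with earlier results of these data known. Genes were tested with edgeR 4.0.16 (R 4.3.3) by the quasi-likelihood test with TMM scaling, filterByExpr with a minimum count of 10, a prior count of 2 and Benjamini-Hochberg adjustment at 0.05; the SE is the log2 value divided by the root of F. Levels are CPM of rounded counts over column totals. Poisson intervals are at 95%, and the floor is 3 counts. Library measures were compared by exact permutation with scipy 1.17.1. Alternatives used DESeq2 1.42.0, limma 3.58.1 (voom), other filters, covariates and limits, and left out each library in turn. The fits were also run on simulated counts, but with far less spread between libraries than the coefficient of variation of 1.39 found here. That run therefore does not show how the fits perform at the noise of these data.

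Named genes were, per comparison and direction, up to 15 called genes with the smallest p (filled to 8 with the next smallest p), leaving out gene models without a name and Chat. To these came all tested cholinergic, transcription factor and receptor list members, up to 4 called or the 2 smallest-p members of other lists, and the 5 genes most like Chat. Promoters came from RefSeq (GRCm38.p6), where 92 of 136 named genes had an entry. Of the tested genes, 80 had counts identical to another gene's, and none of these was named. A few results that the naming rule covers are not reported here.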

Additional observations from a re-analysis of the deposited data

Results flagged for a closer look

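Library measures within each group of the study and levels of named genes among the 6 low libraries, 72 sets in all, were searched for a single library far from the rest (its gap to the nearest value against the whole range). There were 7 such sets. The limit is set for about 1 in 20 by chance, in normal values without ties. That rate does not hold where several libraries had no count, as for Hspa1a and Prima1, nor for genes named by their class difference. All 7 are levels among the 6 low libraries, in log2 CPM with a prior count, and their cause was not tested. Hspa1a was at 2.41 in supplemented Ts65Dn 7 (3.53 CPM), while the other 5 low libraries had no count. Ola1 was at -2.25 in control-diet 2N 5, the one low library with no count of it. Control-diet Ts65Dn 3 was lowest for Cox7b at -2.25 (0 CPM), for acetylcholinesterase (Ache) at 2.53 (4.91 CPM) and for Lhx6 at -1.15 (0.213 CPM). Supplemented 2N 3 stood apart from the other low libraries for Prima1, at 1.597, and for the ciliary neurotrophic factor receptor Cntfr, at 3.65.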

How the results depend on the processing

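No paired analysis was possible because the labels tie no animal of one group to an animal of another. For low against detected libraries, genes called higher and lower numbered 7 and 0 with DESeq2 size factors, 88 and 151 with DESeq2's Wald test, 11 and 1 with limma-voom, 71 and 31 with no filter, 1 and 0 with a count of 10 in 12 libraries, 20 and 2 without the groups as covariate, 0 and 0 with the ID prefix, the number of detected genes or the mitochondrial rRNA share added, 8 and 2 with low below 2 CPM, 1 and 0 with low below 0.7 CPM, 23 and 17 with the amount of Chat over all libraries, 0 and 1 without the pair of libraries with fewest genes, 10 and 5 in control-diet Ts65Dn alone, 14 and 6 in prefix 17, and 14 and 4 in prefixes 16 and 17. Leaving out 1 library gave 0 to 12 higher and 0 to 1 lower (0 higher without control-diet Ts65Dn 5 or supplemented Ts65Dn 7, 12 higher and 1 lower without control-diet 2N 5). For Chat amount, higher and lower calls numbered 9 and 3 with DESeq2 size factors, 8 and 15 with limma-voom, 39 and 57 with no filter, 23 and 122 without the groups, 5 and 4 with detected genes, 12 and 15 with the prefix, and 48 and 136 in prefix 15 alone, where few residual degrees of freedom are left. Leaving out 1 library gave 4 to 20 higher and 0 to 17 lower (20 higher without supplemented 2N 4, 17 lower without control-diet Ts65Dn 1, 0 lower without supplemented Ts65Dn 2 or 5). Tatdn1 turned to -0.80 with limma-voom. Col9a3 stayed above 0 in 41 of 41 alternatives, was called in 31, and lay at 2.01 to 2.80 with 1 library left out. Of these 41 alternatives, 24 only left out 1 library each and so share most of their data. Its call was lost with the prefix, the detected genes or the mitochondrial rRNA share added, with low below 0.7 CPM and with the amount of Chat. It was also lost without the pair with fewest genes, in control-diet Ts65Dn alone and in prefix 17 alone.

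The mitochondrial rRNA difference was 3.24 points and that of the top 100 genes 3.35 without respect to groups, 6.12 and 5.27 with low below 0.7 CPM, and 2.55 and 2.52 without the pair with fewest genes, none of which passed. With 1 library left out they ran from 3.51 to 7.24 and from 3.26 to 6.37, the total count from -2646600 to -1394300, the number of genes from -2203.5 to -685.21 and the mitochondrial mRNA share from -0.0118 to 0.292; this share was at -0.176 without respect to groups. The cause of these shifts was not tested. Settings with the prefix in the Chat amount fit, and prefixes 15 or 16 and 17 alone, were chosen after seeing the data. With 6 low libraries and a biological coefficient of variation of 1.39, errors were wide for genes at few counts, such as an SE of 1.09 for Slc18a3.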

Other observations

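When the amount of Chat over all 24 libraries, log2(Chat CPM + 1), replaced the class in the edgeR test, some further neuronal genes were called. The differences are given per unit less of Chat. Higher with less Chat were Ddn (dendrin, of the postsynaptic density) at 0.46 ± 0.09, Arpp21 at 0.33 ± 0.07, the adenylate cyclase Adcy5 at 0.23 ± 0.05 and Trank1 at 0.19 ± 0.04 (SE, edgeR adjusted p from 0.00894 to 0.0394). Lower were Ppargc1a, a coactivator of mitochondrial biogenesis, at -0.29 ± 0.06 and the fusion factor Napb at -0.22 ± 0.05 (SE, edgeR adjusted p = 0.0349 for both). These genes were named after their values were seen, and the part of other neuron types in them was not tested.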
